A study of Komagataella pastoris with 6 samples.

Results

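The 10 genes described here are listed as those of the glycolysis enzymes from glucose-6-phosphate isomerase to pyruvate kinase in the yeast Pichia pastoris. They were taken by a list of identifiers from the 5040 genes of the count table. The pairs of name and identifier are PGI1 (PAS_chr3_0456), PFK1 (PAS_chr2-1_0402), PFK2 (PAS_chr1-4_0047), FBA1-1 (PAS_chr1-1_0072), TPI1 (PAS_chr3_0951), TDH3 (PAS_chr2-1_0437), PGK1 (PAS_chr1-4_0292), GPM1 (PAS_chr3_0826), ENO1 (PAS_chr3_0082) and CDC19 (PAS_chr2-1_0769). All 10 had reads in every library and passed the filter on low counts, as did 5029 of the 5040 genes. The count table holds identifiers only, so the names and enzyme roles come from that list and were not checked against an annotation, and the positions and sequences of the genes were not analysed here.

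The study asked whether flocculation, in which cells stick together in clumps, improves tolerance to d-lactic acid and its production. To look into the improved tolerance, it compared gene expression between a strain that flocculates and one that does not. The flocculating strain, KM71-ScFlo1-LpDLDH, carries the flocculin gene ScFLO1 of Saccharomyces cerevisiae and a codon-optimized d-lactate dehydrogenase gene of Leuconostoc pseudomesenteroides (LpDLDH), and the control strain, KM71-LpDLDH, carries LpDLDH alone. Each strain was sampled in 3 cultures, about 21 h after inoculation to an OD600 of 0.05 in minimal medium with glycerol and histidine, at 30 °C and 250 rpm. Both derive from KM71, a histidine auxotroph with a disrupted AOX1 gene. In both strains the transgenes are driven by the GAP promoter, the promoter of TDH3. ScFLO1 came on a plasmid with a HIS4 marker, and the methods name no empty HIS4 plasmid in the control strain. Effects of ScFLO1, of that marker and of a further plasmid with the GAP promoter therefore cannot be told apart. How many clones or plasmid copies stand behind each strain is not given in the sources used here.

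Glycolysis turns glucose-6-phosphate into pyruvate. Its preparatory phase spends ATP and splits the sugar into triose phosphates, and its payoff phase oxidizes the triose phosphates and forms ATP. Phosphofructokinase and pyruvate kinase catalyse steps that are practically irreversible, while the other enzymes of this set can also work in the direction of gluconeogenesis. Glycerol, the carbon source of these cultures, enters between the phases, as dihydroxyacetone phosphate, the substrate of triosephosphate isomerase. Pyruvate, the end product, is the substrate of the d-lactate dehydrogenase that both strains carry.

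Levels are given as CPM, the reads of a gene scaled to a fixed library size, here with TMM, a correction for differences in library composition. CPM are not corrected for gene length, so they compare strains and not genes. They are also relative to all other transcripts, so less glycolytic RNA per cell and more of other RNA cannot be told apart. Library totals lay between 10386352 and 12767753 reads. The lowest read count of any of the 10 genes in any library was 12913, so counting error was small beside the spread between cultures. The 10 genes together took between 3.95% and 4.95% of the reads of each KM71-ScFlo1-LpDLDH library and between 4.02% and 4.32% of each KM71-LpDLDH library.

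Both phosphofructokinase genes of the set fell in KM71-ScFlo1-LpDLDH and the phosphoglycerate mutase gene GPM1 rose. The test was the quasi-likelihood test of edgeR, and a gene was called where its p-value, adjusted by Benjamini-Hochberg over the 5029 genes, was under 0.05. The other 7 genes did not pass by edgeR. DESeq2, the test the authors used, also called TDH3 higher (adjusted p = 0.0225) and FBA1-1 lower (adjusted p = 0.0440) at that threshold. Among the 5029 genes it called 1606 higher and 1625 lower. The 3 edgeR calls among 10 genes stood against a background of 64.2% of all tested genes called, with 1 rise against 32.6% called higher and 2 falls against 31.5% called lower. No gene of the 10 also exceeded a fold change of 2, which 16.4% of all tested genes did. The median log2 fold change of the 10 genes was -0.046, against 0.023 for all tested genes, and the median of its size was 0.20, against 0.41. The 2 falls were in the preparatory phase and the rise was in the payoff phase. This division rests on few genes, as 3 of 5 preparatory and 4 of 5 payoff genes were not called. The call of GPM1 was marginal and was kept in only 8 of 17 alternative settings.

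**Figure D1:**
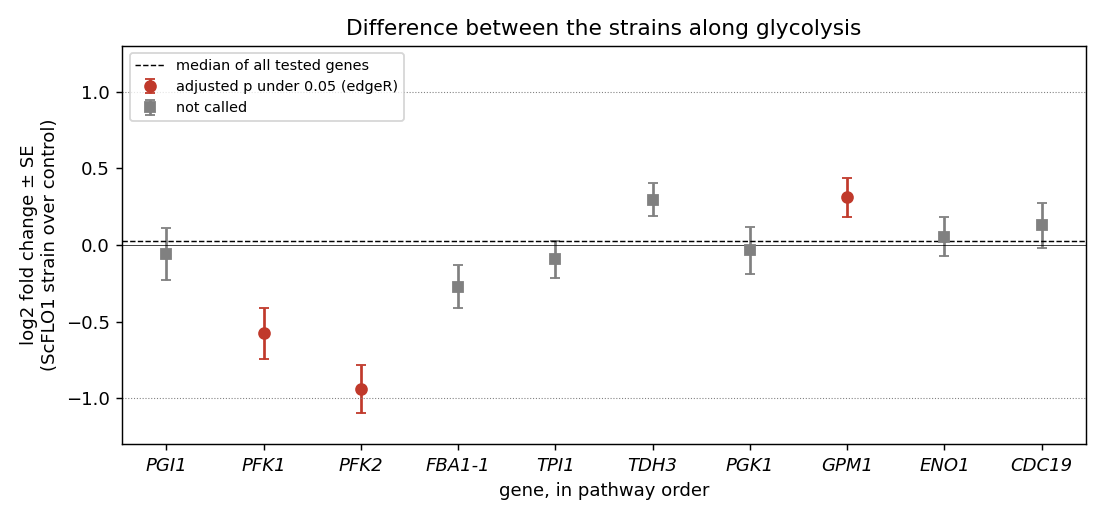
The log2 fold change of each gene (KM71-ScFlo1-LpDLDH over KM71-LpDLDH, 3 cultures each) is plotted in pathway order with its standard error (SE). Red circles mark genes with an adjusted p under 0.05 by edgeR, grey squares mark the others, the dashed line is the median of all tested genes at 0.023, and the dotted lines mark a fold change of 2. PFK2 at -0.94 and PFK1 at -0.58 lie lowest, and TDH3 at 0.30 and GPM1 at 0.31 lie highest.

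Phosphofructokinase phosphorylates fructose-6-phosphate, the committed step of glycolysis. In Saccharomyces cerevisiae it is built from alpha subunits, encoded by PFK1, and beta subunits, encoded by PFK2. PFK3, listed for a gamma subunit among other pathway genes of P. pastoris, is not among the 10 genes. PFK2 had 992, 1114 and 1349 CPM in replicates 1, 2 and 3 of KM71-ScFlo1-LpDLDH, against 2391, 1957 and 2289 CPM in replicates 1, 2 and 3 of KM71-LpDLDH. Every flocculating culture lay below every control culture, and the means were 1152 ± 181 CPM in KM71-ScFlo1-LpDLDH and 2213 ± 227 CPM in KM71-LpDLDH (SD, n = 3 each). PFK2 thus fell by 47.9%, a log2 fold change of -0.94 (SE 0.16, edgeR adjusted p = 0.000164). This was the largest change among the 10 genes, and 8.65% of all tested genes had a lower log2 fold change. Its fold change exceeded 2 without replicate 3 of KM71-ScFlo1-LpDLDH (log2 fold change -1.07) and without replicate 2 of KM71-LpDLDH (-1.02).

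PFK1 had 1672, 1986 and 2385 CPM in replicates 1, 2 and 3 of KM71-ScFlo1-LpDLDH, against 3256, 2719 and 3038 CPM in the KM71-LpDLDH replicates in the same order. These strains did not overlap either, with means of 2015 ± 358 CPM in KM71-ScFlo1-LpDLDH and 3004 ± 270 CPM in KM71-LpDLDH (SD, n = 3 each). PFK1 fell by 32.9%, a log2 fold change of -0.58 (SE 0.17, edgeR adjusted p = 0.00504). Both falls held at an adjusted p under 0.05 in each of 17 alternative settings, where the log2 fold change ranged from -1.07 to -0.78 for PFK2 and from -0.72 to -0.41 for PFK1.

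The fall was larger for PFK2 than for PFK1 in these cultures. The number of PFK1 reads per PFK2 read, which needs no scaling of the libraries, was 1.69, 1.78 and 1.77 in KM71-ScFlo1-LpDLDH (replicates 1, 2 and 3), against 1.36, 1.39 and 1.33 in those of KM71-LpDLDH. The ratio was higher in 3 of 3 flocculating cultures than in any control culture. Every other ratio of reads between neighbouring genes in pathway order also separated the strains, so a separation was not particular to this pair. As 3 cultures against 3 allow no p below 0.1 in an exact two-sided permutation test, the ratio is given as a description.

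The other 3 genes of the preparatory phase encode enzymes whose reactions run in both directions, and none passed the test. FBA1-1, an aldolase gene, had 4183, 4787 and 5707 CPM in replicates 1, 2 and 3 of KM71-ScFlo1-LpDLDH, against 6035, 5466 and 6206 CPM in those of KM71-LpDLDH. Replicate 3 of the flocculating strain lay above replicate 2 of the control strain, so the groups overlapped. The aldolase gene thus had a log2 fold change of -0.27 (SE 0.14, edgeR adjusted p = 0.110). The call was reached without replicate 3 of KM71-ScFlo1-LpDLDH, with a log2 fold change of -0.40 and an adjusted p of 0.00854 by edgeR, and it was also reached with DESeq2 and with unscaled libraries (adjusted p = 0.0440 and 0.00202). Over all alternatives the adjusted p of FBA1-1 lay between 0.00202 and 0.493.

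PGI1 and TPI1 encode isomerases, PGI1 at the hexose phosphates and TPI1 at the triose phosphates. PGI1 had 3199, 3714 and 4616 CPM in replicates 1, 2 and 3 of KM71-ScFlo1-LpDLDH, against 4096, 3595 and 4307 CPM in those of KM71-LpDLDH. The flocculating cultures spanned the whole range of the control cultures. TPI1 likewise had 1481, 1666 and 1942 CPM in KM71-ScFlo1-LpDLDH, against 1867, 1706 and 1854 CPM in KM71-LpDLDH. The log2 difference (KM71-ScFlo1-LpDLDH minus KM71-LpDLDH) had a 95% interval by limma from -0.42 to 0.28 for PGI1 and from -0.37 to 0.17 for TPI1. Both intervals include 0 and neither reaches a fold change of 2 in either direction.

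TDH3, which encodes glyceraldehyde-3-phosphate dehydrogenase, the NAD+-dependent first enzyme of the payoff phase, is the gene whose promoter drives both transgenes. TDH3 had 9072, 10390 and 11612 CPM in replicates 1, 2 and 3 of KM71-ScFlo1-LpDLDH, against 8662, 8045 and 8616 CPM in those of KM71-LpDLDH. The strains did not overlap, but replicate 1 of the flocculating strain lay close to the control cultures. The means were 10358 ± 1270 CPM in KM71-ScFlo1-LpDLDH and 8441 ± 344 CPM in KM71-LpDLDH (SD, n = 3 each), a log2 fold change of 0.30 (SE 0.11) that missed the threshold (edgeR adjusted p = 0.0749). The 95% interval of the log2 difference by limma ran from -0.073 to 0.65.

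The call of TDH3 turned on the setting. Without replicate 1 of KM71-ScFlo1-LpDLDH it had a log2 fold change of 0.38 and an adjusted p of 0.0213 by edgeR. It also passed with DESeq2 (adjusted p = 0.0225), total-count scaling (0.00500), upper-quartile scaling (0.00792) and no scaling (0.00302). With total-count and upper-quartile scaling, however, the median gene stood at a log2 fold change of 0.13 and 0.19, against 0.023 with TMM. Measured from the median gene, TDH3 stood at 0.27 with each of these 2 scalings and with TMM, so its distance from that gene was no larger. With no scaling and with DESeq2 the median gene stood at -0.0011 and 0.0084, so these passes came without such a shift. With no scaling, TDH3 stood at 0.26 from the median gene. The log2 fold change of TDH3 was positive in all 17 alternatives, between 0.20 and 0.46, with adjusted p-values between 0.000554 and 0.235. The lowest of these came from scaling by the summed reads of the 10 genes, TDH3 included, and is not independent support. The transcripts of ScFLO1 and LpDLDH were not analysed here, so these values describe the native gene of the promoter and not the promoter's output on the transgenes.

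GPM1 encodes phosphoglycerate mutase, which moves the phosphate of 3-phosphoglycerate. It had 2311, 2623 and 3060 CPM in replicates 1, 2 and 3 of KM71-ScFlo1-LpDLDH, against 2281, 2054 and 2108 CPM in those of KM71-LpDLDH. The strains did not overlap, though replicate 1 of the flocculating strain was within 30 CPM of replicate 1 of the control strain. The means of 2665 ± 376 CPM in KM71-ScFlo1-LpDLDH and 2148 ± 119 CPM in KM71-LpDLDH (SD, n = 3 each) gave a rise of 24.1%, a log2 fold change of 0.31 (SE 0.13, edgeR adjusted p = 0.0479). The call was marginal and was lost in 9 of 17 alternatives, with adjusted p-values between 0.00455 and 0.159 over all of them. It was lost without replicate 2 of KM71-ScFlo1-LpDLDH (adjusted p = 0.108), without replicate 3 of that strain (0.109) and without replicate 1, 2 or 3 of KM71-LpDLDH (0.0808, 0.159 and 0.140), all by edgeR. With the replicate number as a block it was 0.0799.

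PGK1, ENO1 and CDC19 complete the payoff phase and did not pass the test. PGK1 encodes phosphoglycerate kinase, which forms the first ATP of this phase. It had 4261, 4876 and 6051 CPM in replicates 1, 2 and 3 of KM71-ScFlo1-LpDLDH, against 5452, 4884 and 5214 CPM in those of KM71-LpDLDH, and the groups overlapped. ENO1, the enolase gene, had 5718, 6637 and 7618 CPM in KM71-ScFlo1-LpDLDH, against 6690, 6104 and 6436 CPM in KM71-LpDLDH, and CDC19, the pyruvate kinase gene, had 3850, 4388 and 5407 CPM in KM71-ScFlo1-LpDLDH, against 4300, 3999 and 4184 CPM in KM71-LpDLDH. For each of these 3 genes the flocculating cultures lay on both sides of the control cultures. The log2 fold changes were -0.034 for PGK1, 0.055 for ENO1 and 0.13 for CDC19, with 95% intervals by limma from -0.40 to 0.30, from -0.30 to 0.39 and from -0.22 to 0.45. The interval of PFK1, from -0.91 to -0.26, lies wholly below that of CDC19, though the difference between these genes was not tested.

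**Figure D2:**
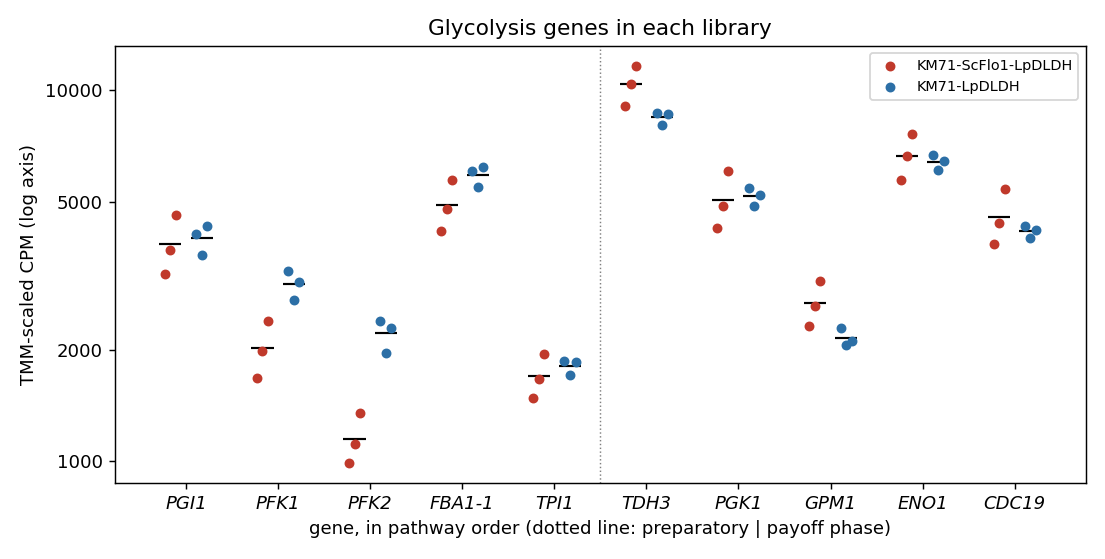
TMM-scaled CPM on a log axis is shown for each of the 10 genes in pathway order, with 1 point per library in replicate order and a bar at the mean of each strain. The 3 KM71-ScFlo1-LpDLDH libraries (red) spread more than the 3 KM71-LpDLDH libraries (blue), lie below them without overlap for PFK1 and PFK2, and lie above them without overlap for TDH3 and GPM1.

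The libraries of the strains did not overlap for 4 of the 10 genes, 2 higher (TDH3 and GPM1) against 35.3% of all tested genes and 2 lower (PFK1 and PFK2) against 33.6%. The spread between the flocculating cultures stood beside these counts. The coefficient of variation of the CPM lay between 12.3% and 18.7% for the 10 genes in KM71-ScFlo1-LpDLDH, where the median of all tested genes was 7.92%. In KM71-LpDLDH it lay between 3.65% and 10.2%, where the median of all tested genes was 7.69%. In the flocculating strain, replicate 3 was the highest and replicate 1 the lowest for 10 of the 10 genes, a pattern that 27.3% of all tested genes had. In the control strain, replicate 2 was the lowest for 10 of the 10 genes, as it was for 32.9% of all tested genes. In each strain the lowest library was the one with the most reads, 12494758 for replicate 1 of KM71-ScFlo1-LpDLDH and 12767753 for replicate 2 of KM71-LpDLDH. The part of depth in these differences was not tested.

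Summed over the 10 genes, the levels were 36740, 42181 and 49747 CPM in replicates 1, 2 and 3 of KM71-ScFlo1-LpDLDH, against 45029, 40530 and 44253 CPM in those of KM71-LpDLDH. The sums overlapped, with means of 42889 ± 6532 CPM in KM71-ScFlo1-LpDLDH and 43271 ± 2405 CPM in KM71-LpDLDH (SD, n = 3 each) and a ratio of 0.991. The 5 preparatory genes summed to 13598 ± 2254 CPM in KM71-ScFlo1-LpDLDH and 16927 ± 1286 CPM in KM71-LpDLDH. The 5 payoff genes summed to 29292 ± 4280 CPM in KM71-ScFlo1-LpDLDH and 26344 ± 1164 CPM in KM71-LpDLDH. Both of these sums overlapped between the strains as well. Within a library, the payoff genes had 2.19, 2.18 and 2.11 reads per preparatory read in the KM71-ScFlo1-LpDLDH replicates, against 1.55, 1.62 and 1.50 in those of KM71-LpDLDH. This ratio was not among the planned quantities, and the phases were chosen with earlier results known, so it is given as a description. Not every gene took part in it. The reads of PGI1 and of PGK1, each as a part of the reads of the 10 genes, overlapped between the strains.

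The division was described as the share of each gene in the reads of the 10 genes of its library. As the shares sum to the whole, a higher share of one gene lowers those of the others. The coefficient of variation of a share between cultures was between 0.554% and 3.42% in KM71-ScFlo1-LpDLDH and between 0.776% and 4.85% in KM71-LpDLDH. TDH3 took 24.7%, 24.6% and 23.3% of the glycolytic reads in replicates 1, 2 and 3 of KM71-ScFlo1-LpDLDH, against 19.2%, 19.8% and 19.5% in those of KM71-LpDLDH. PFK2 took 2.70%, 2.64% and 2.71% in KM71-ScFlo1-LpDLDH, against 5.31%, 4.83% and 5.17% in KM71-LpDLDH. Thus TDH3 had 9.15, 9.32 and 8.61 reads per PFK2 read in the flocculating cultures, against 3.62, 4.11 and 3.76 in the control cultures. This pair joins the largest rise and the largest fall in share among the 10 genes. Its ratio was not among the planned quantities, so it is given as a description.

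The shares of 4 genes were higher without overlap in KM71-ScFlo1-LpDLDH (TDH3, GPM1, ENO1 and CDC19), against 27.0% of all tested genes whose reads, set against those of the 10 genes, were higher without overlap. Those of 4 others were lower without overlap (PFK1, PFK2, FBA1-1 and TPI1), against 26.3%. By its construction, division by the sum of the 10 genes removes the variation that these genes share between cultures. It need not do so for other genes, so the counts and these percentages are not like for like and show no enrichment. The shares of the other 2, PGI1 and PGK1, overlapped. PGI1 stood at 8.93% ± 0.306 in KM71-ScFlo1-LpDLDH and 9.23% ± 0.447 in KM71-LpDLDH, and PGK1 at 11.8% ± 0.338 in KM71-ScFlo1-LpDLDH and 11.98% ± 0.173 in KM71-LpDLDH (SD, n = 3 each). FBA1-1 stood at 11.4% ± 0.0631 in KM71-ScFlo1-LpDLDH and 13.6% ± 0.337 in KM71-LpDLDH, and TPI1 at 3.96% ± 0.0651 in KM71-ScFlo1-LpDLDH and 4.18% ± 0.0324 in KM71-LpDLDH. GPM1 stood at 6.22% ± 0.0692 in KM71-ScFlo1-LpDLDH and 4.97% ± 0.175 in KM71-LpDLDH.

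**Figure D3:**
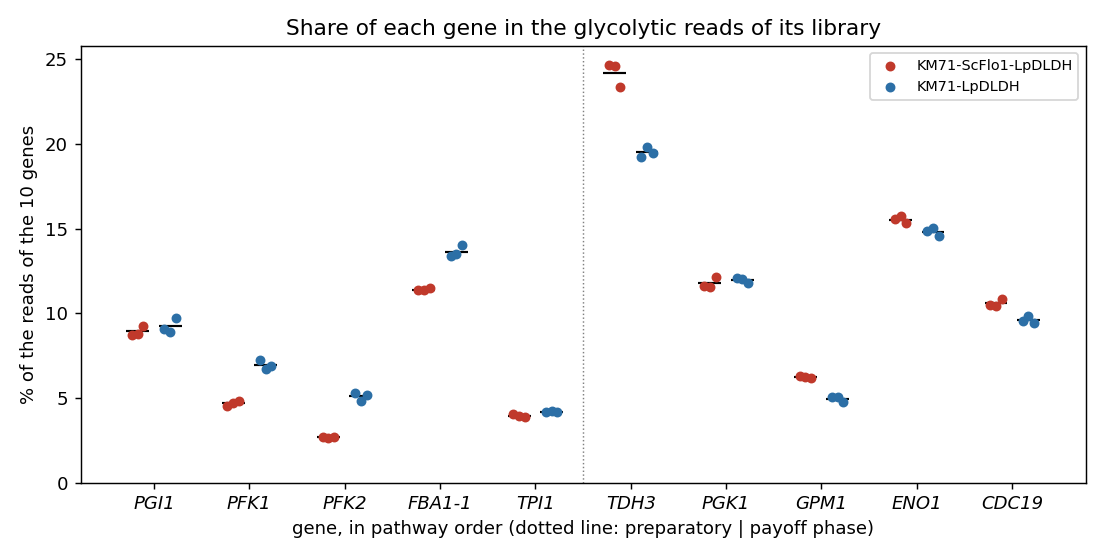
The share of each gene in the summed reads of the 10 genes is plotted in percent, with 1 point per library and a bar at the mean of each strain. TDH3 lies between 23.3% and 24.7% in KM71-ScFlo1-LpDLDH (red) and between 19.2% and 19.8% in KM71-LpDLDH (blue), and PFK2 lies between 2.64% and 2.71% in KM71-ScFlo1-LpDLDH and between 4.83% and 5.31% in KM71-LpDLDH.

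When the libraries were scaled by the summed reads of the 10 genes in place of TMM, an alternative chosen after seeing the data, the edgeR fit over all genes called 2 of the 10 higher, against 25.0% of all tested genes, and 3 lower, against 21.6%. The genes called higher were TDH3 (log2 fold change 0.31, adjusted p = 0.000554) and GPM1 (0.32, adjusted p = 0.00619). Those called lower were PFK2 (-0.93, adjusted p = 3.29e-07), PFK1 (-0.57, adjusted p = 4.01e-05) and FBA1-1 (-0.26, adjusted p = 0.00718). The fold changes were close to those with TMM. By its construction this scaling removes the variation that the 10 genes share between cultures, so their smaller p-values are not independent support. Over all tested genes it gave fewer calls than TMM, 1257 higher and 1088 lower, against 1641 and 1586. PGI1, TPI1, PGK1, ENO1 and CDC19 were not called under this scaling, and the lowest adjusted p of these was 0.158 by edgeR.

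Set among all tested genes, the 10 glycolysis genes lay in the middle of the log2 fold changes, apart from both phosphofructokinase genes. PFK1 had a higher log2 fold change than 17.2% of all tested genes, and GPM1, the highest of the 10, had a higher one than 68.9%. TDH3 followed at 68.0%, close to GPM1, and the values of these neighbours did not differ beyond their standard errors. The genes whose pattern over the 6 libraries was most like that of TDH3, by the root mean square difference of log2 CPM after centring each gene, were PAS_chr3_0604 (0.029), PAS_chr3_0399 (0.035) and GPM1 (0.037). The sources used here give no names for the first pair. CDC19 (0.099) and ENO1 (0.12) followed among the 10 genes, and PFK2 (0.62) was the least like TDH3. All 6 libraries entered this measure, and those of 1 strain share that strain's level, so it is given as a description.

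**Figure D4:**
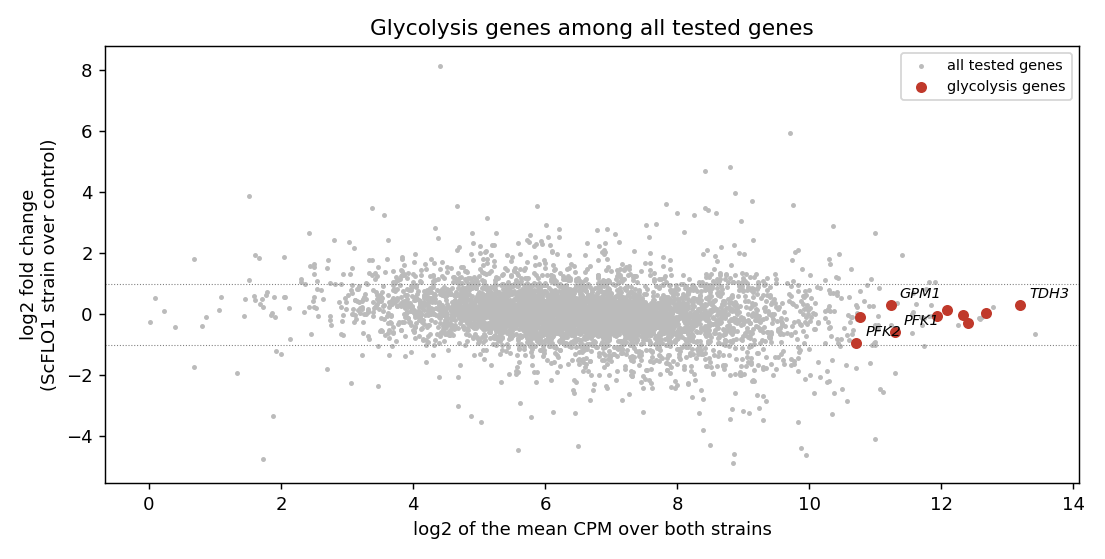
The log2 fold change (KM71-ScFlo1-LpDLDH over KM71-LpDLDH) of the 5029 tested genes (grey) and of the 10 glycolysis genes (red) is plotted against the log2 of the mean CPM over both strains, which is not corrected for gene length. Dotted lines mark a fold change of 2, and the 10 genes lie between them, from PFK2 at -0.94 to GPM1 at 0.31.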

How the data were processed

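Messenger RNA of 3 cultures per strain was sequenced as paired reads. The authors filtered them with fastp, used HISAT2 for mapping to the genome of strain GS115, and obtained read counts with HTSeq-count. For tool versions and the use of strand, nothing is given in the sources used here. The deposited table holds whole-number read counts, although its name calls them normalized, and they were used as raw counts. Differing library totals alone do not settle this. The DESeq2 size factors of the libraries lay between 0.871 and 1.15, where counts already scaled by them would give values near 1. Every value column was matched to a sample (0 left unmatched).

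The filter kept genes averaging 10 or more reads, and libraries were scaled by TMM. The strains were compared with edgeR 4.0.16 in R 4.3.3 (quasi-likelihood test, Benjamini-Hochberg adjustment over all genes, threshold 0.05). DESeq2 1.42.0 and limma 3.58.1 were alternatives, and limma gave the 95% intervals. Standard errors come from log2 CPM of the replicates (prior count 2). The fit was tested on simulated data. Other alternatives changed the scaling, the filter and the threshold, used the replicate number as a block, and left out each library in turn. The p-values measure the spread between the cultures named as triplicates in the methods. Replicate pairs of a strain differed by a chi-square per degree of freedom of at least 11.9.

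All 10 genes are named, in pathway order, with 3 genes most like TDH3. These genes, lists and phases were chosen with earlier results of these data known. Other glycolytic genes were to be named only through the reference gene table, which paired 0 identifiers with the counts, so they were not used here.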

Additional observations from a re-analysis of the deposited data

How the results depend on the processing

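The falls of PFK1 and PFK2 kept their call in all 17 alternatives, and the share of TDH3 and the PFK1 to PFK2 ratio moved by less than the spread between replicates with each library left out. The ratio of the summed CPM of the 10 genes (KM71-ScFlo1-LpDLDH over KM71-LpDLDH), 0.991 with TMM, lay on both sides of 1, between 0.910 and 1.11 over its alternatives, and that of the 5 payoff genes, 1.11 with TMM, reached 1.25 with upper-quartile scaling. The number of genes called higher, 1 here (GPM1), became 0 with DESeq2 size factors, with no filter, with limma, with an adjusted p under 0.01 and with the replicate block, became 2 with DESeq2, total-count, upper-quartile and no scaling and with scaling by the summed reads of the 10 genes, and lay between 0 and 2 with each library left out. The number called lower at a fold change above 2, 0 here, lay between 0 and 1 with each library left out. Total-count and upper-quartile scaling moved the median of all log2 fold changes to 0.13 and 0.19, against 0.023 with TMM, and the higher share of all calls to 60.2% and 65.2%, against 50.9%. Under them 3 uncalled genes changed sign, PGI1 (0.043 and 0.11), TPI1 (0.0092 and 0.073) and PGK1 (0.066 and 0.13). Relative to that median these 3 stayed negative, PGI1 at -0.087 and -0.081, TPI1 at -0.121 and -0.117 and PGK1 at -0.064 and -0.059. On the same measure TDH3 stood at 0.27 under both. Leaving out 1 library at a time gave log2 fold changes from -0.21 to 0.058 for PGI1, from -0.19 to 0.076 for PGK1, from -0.057 to 0.15 for ENO1 and from -0.018 to 0.24 for CDC19, all uncalled. The replicate block gave a log2 fold change of 0.30 for GPM1 (adjusted p = 0.0799 by edgeR) and changed no other call among the 10 genes. The numbers were not taken to pair the cultures, since deviations of same-numbered cultures correlated at -0.13, 0.053 and 0.11 across genes. The cause of these changes was not tested.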
